A study of Homo sapiens with 4 samples.

Results

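The antigen presentation genes followed here are 36 genes whose products build, load or regulate MHC class I and class II molecules. Each was taken from the probe sets annotated to 1 gene only, and the probe set with the highest mean signal over the 4 arrays stood for the gene. A probe set of its own was found for 34 of the 36, among 19775 genes in all. PSME2 had only a probe set annotated to a further gene as well, and none was found for IFI30, so neither is measured here. Gene expression was profiled on GeneChip Human Genome U133 Plus 2.0 arrays in THP-1, a human monoblastoid leukemia cell line, in a version that expresses Siglec-14 (Siglec-14/THP-1) and in a version that expresses Siglec-5 (Siglec-5/THP-1). The lines stand for monocytes of people with and without SIGLEC14, and the sources used here do not say whether either is a single clone. Cells were kept for 6 h in serum-free medium with heat-killed NTHi (non-typeable Haemophilus influenzae, strain 2019, 100 bacteria per cell; NTHi[+]) or without it (NTHi[-]). The 4 conditions Siglec-14,NTHi[+], Siglec-14,NTHi[-], Siglec-5,NTHi[+] and Siglec-5,NTHi[-] had 1 array each, labeled from 250 ng of total RNA, so a ratio of 2 arrays has no replicate error. Signals are linear intensities as deposited, and values of different probe sets are not compared with each other.

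MHC class I molecules, a heavy chain paired with the light chain B2M, show peptides from inside the cell to CD8 T cells and to NK cells. Proteasomes cut these peptides, the TAP transporter carries them into the endoplasmic reticulum, and a loading complex places them on the heavy chain. MHC class II molecules are held by the invariant chain CD74, are loaded in endosomes under the control of HLA-DM and HLA-DO, and show their peptides to CD4 T cells. NLRC5 is the transactivator of class I genes and CIITA that of class II genes, and both act through a promoter module bound by the RFX complex. Monocytes are known for strong class I expression and for class II expression that interferon gamma raises.

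The promoters of HLA-B and HLA-F, whose signals differed between the lines in the fit described later, and of B2M, the light chain that both heavy chains pair with, are shown so that the elements they share can be read. Each stretch is the 250 bases before an annotated start in RefSeq (build GRCh38.p14), written 5′ to 3′ along the gene. Capitals mark matches, on either strand, to GAAANNGAA (part of an interferon response element), GGGNNTTCC (part of an NF-kB site), ATTGG (the inverted CCAAT or Y box) and TGACG (part of a CRE or X2 box).

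HLA-B (chr6:31357180-31357429, minus strand): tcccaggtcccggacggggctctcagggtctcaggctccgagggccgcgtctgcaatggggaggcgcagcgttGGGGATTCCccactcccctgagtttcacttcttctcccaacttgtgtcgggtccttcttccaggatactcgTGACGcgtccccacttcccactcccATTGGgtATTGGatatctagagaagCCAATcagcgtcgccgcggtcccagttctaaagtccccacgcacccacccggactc

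HLA-F (chr6:29723184-29723433, plus strand): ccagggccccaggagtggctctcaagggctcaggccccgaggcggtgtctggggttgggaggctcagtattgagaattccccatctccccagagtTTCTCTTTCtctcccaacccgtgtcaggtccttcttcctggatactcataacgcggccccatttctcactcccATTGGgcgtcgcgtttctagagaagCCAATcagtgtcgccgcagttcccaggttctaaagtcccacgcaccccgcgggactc

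B2M (chr15:44711267-44711516, plus strand): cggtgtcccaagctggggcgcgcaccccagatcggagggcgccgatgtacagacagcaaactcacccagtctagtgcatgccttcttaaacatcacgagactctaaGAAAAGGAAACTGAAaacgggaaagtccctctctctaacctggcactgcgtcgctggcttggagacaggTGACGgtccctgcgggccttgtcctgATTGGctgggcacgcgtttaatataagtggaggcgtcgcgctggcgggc

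HLA-B held an NF-kB-type match upstream of a TGACG and a cluster of CCAAT boxes. HLA-F held a CCAAT pair likewise toward its 3′ end and an interferon-type match, and B2M held 2 overlapping interferon-type matches upstream of TGACG and ATTGG. Over 35116 windows of this length, GAAANNGAA was found in 6.88%, GGGNNTTCC in 5.78%, ATTGG in 32.0% and TGACG in 21.2%. Of the 31 antigen presentation genes with a window in the RefSeq table, 12 held GAAANNGAA in at least 1 window, 7 held GGGNNTTCC, 20 held ATTGG and 12 held TGACG, and some genes had several windows. Counted by window, like the percentages, 12, 7, 22 and 14 of their 47 windows held these letters. These matches describe the letters only. HLA-E, HLA-DRA, CIITA, NLRC5 and PDIA3 had no entry.

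The arrays were close in scale but not equal. Their signals summed to 13823899, 12599540, 13288213 and 13903154 for Siglec-14,NTHi[+], Siglec-14,NTHi[-], Siglec-5,NTHi[+] and Siglec-5,NTHi[-]. A signal at or above 16.01, the median of all signals, counted as reaching the floor, and 105 was the 75th percentile. The median log2 ratio of all genes at the floor was 0.08 for NTHi in Siglec-14/THP-1, -0.11 for NTHi in Siglec-5/THP-1, -0.13 for Siglec-14 over Siglec-5 without NTHi and 0.06 with NTHi. With the arrays brought to the same sum, these medians were -0.05, -0.05, 0.02 and 0.0036, so small ratios below are read against them. Of 14 monocyte markers, 12 had a probe set of their own and 10 reached the floor. The lysozyme gene LYZ lay between 3036 and 3430 and gave much of their sum, but the monocyte receptor gene CD14 stayed under the floor on all arrays (highest signal 11.4). The summed signal of the monocyte markers was 6527 and 6183 in Siglec-14/THP-1 and 5659 and 5966 in Siglec-5/THP-1, with and without NTHi. That of 6 T cell markers lay between 45.1 and 74.9, and that of the NK cell markers was 819 and 692 against 286 and 295, where GNLY alone gave 410 and 360 against 2.14 and 3.71. In the limma fit described later, 4.69% of all probe sets were called higher and 3.8% lower in Siglec-14/THP-1 than in Siglec-5/THP-1. Of 10 tested monocyte markers, 3 were called higher and 0 lower. They were the integrin ITGAM, with 353 and 290 in Siglec-14/THP-1 with and without NTHi against 167 and 198 in Siglec-5/THP-1, the adaptor TYROBP, with 376 and 329 against 186 and 205, and the integrin ITGAX, with 44.2 and 34.9 against 14.8 and 21.3. The dendritic cell markers split, with LAMP3 at 150 and 84.9 against 29.0 and 37.6 called higher and CCR7 at 116 and 116 against 148 and 208 called lower. GNLY, of 3 tested NK cell markers, was called higher too. So was the collagen gene COL1A1, of 2 tested fibroblast markers, at 257 and 266 against 132 and 141. The tested T cell, B cell and epithelial markers had 0 called. The part of these markers in the results was not tested. SIGLEC14 has no probe set of its own here and SIGLEC5 lay near the floor (4.13 to 21.6), so the labels of the lines could not be checked on them.

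The class I chains were far above the floor on every array, whereas several class II chains lay near or under it in all 4 conditions. Of the 34 measured genes, 33 reached the floor on at least 1 array, 29 on all 4, and 23 had a signal at the 75th percentile or more somewhere. All 6 class I chains and all 7 genes of peptide transport, editing and folding reached the floor on every array, as did all 7 of peptide cutting. Among the 9 class II chains, editors and CD1D, 5 did. HLA-DPA1 never reached it. The plot of signals by gene shows this division.

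**Figure D1:**
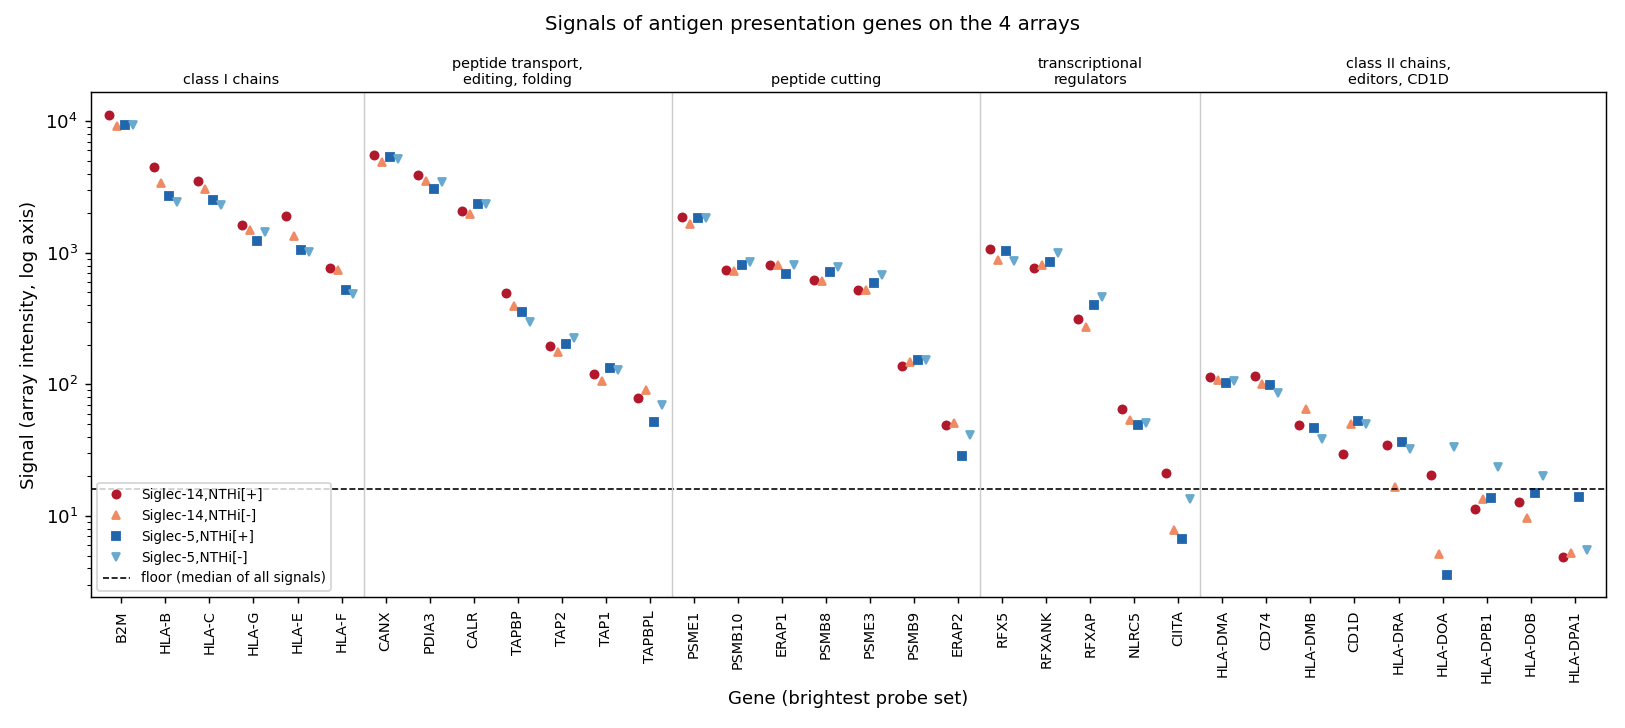
Signal (array intensity, log axis) of the brightest probe set of each of 34 antigen presentation genes, grouped by role, with 1 point per array and a dashed line at the floor of 16.01; heights compare arrays within a gene. The class I chains lie far above the floor on all 4 arrays, whereas HLA-DPA1 lies under it on all 4.

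The class I heavy chains had higher signals in Siglec-14/THP-1 than in Siglec-5/THP-1, by less than 2-fold. HLA-B, a classical heavy chain, had signals of 4501 in Siglec-14,NTHi[+] and 3400 in Siglec-14,NTHi[-], against 2725 in Siglec-5,NTHi[+] and 2453 in Siglec-5,NTHi[-]. HLA-E, a nonclassical heavy chain whose complex is read by NK cell receptors, had 1910 and 1338 in Siglec-14/THP-1 with and without NTHi, against 1060 and 1012 in Siglec-5/THP-1. Both Siglec-14 arrays were above both Siglec-5 arrays for these genes, and the Siglec-14,NTHi[+] array was the highest. HLA-F, a nonclassical heavy chain, had 766 and 743 in Siglec-14/THP-1 with and without NTHi, against 520 and 488 in Siglec-5/THP-1. HLA-C, the other classical chain measured, had 3522 and 3075 against 2522 and 2323. The lines did not overlap for either of them, and HLA-F hardly differed between the arrays of a line. How often the lines are so separated over all genes was not counted, so the separation alone carries little weight. HLA-G, a nonclassical chain best known from trophoblast, had 1614 and 1482 in Siglec-14/THP-1 and 1241 and 1451 in Siglec-5/THP-1. B2M had 11136 and 9137 in Siglec-14/THP-1 and 9305 and 9403 in Siglec-5/THP-1, so that the lines overlapped for the light chain as deposited. With the arrays at the same sum or quantile normalized, all 6 class I chains were higher in Siglec-14/THP-1, with and without NTHi. ITGAM, TYROBP, ITGAX and LAMP3 were also called higher in Siglec-14/THP-1, as were GNLY and COL1A1 from the NK cell and fibroblast lists. Other markers went the other way. CCR7 was called lower, and LYZ (0.95 and 0.92) and FCGR2A (0.98 and 0.92) had line ratios just under 1 with and without NTHi. The part of these markers in the class I difference was not tested. In RNA from whole cultures, fewer expressing cells and less RNA per cell cannot be told apart.

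The ratio of Siglec-14 over Siglec-5 with NTHi was 1.80 for HLA-E, 1.65 for HLA-B, 1.47 for HLA-F, 1.40 for HLA-C, 1.30 for HLA-G and 1.20 for B2M. Without NTHi it was 1.32 for HLA-E, 1.39 for HLA-B, 1.52 for HLA-F, 1.32 for HLA-C, 1.02 for HLA-G and 0.97 for B2M. The median log2 ratio of the 6 chains was 0.52 with NTHi and 0.40 without, against 0.06 and -0.13 over all genes. For the 5 heavy chains these ratios stayed above 1 under scaling to the same sum, scaling to the same median and quantile normalization, and that of B2M without NTHi went above 1 under the sum scaling and quantile normalization. Among 3540 genes of mean signal 500 and above, the central 95% of ratios ran over 0.68 to 1.74 with NTHi and 0.62 to 1.55 without. HLA-E with NTHi lay outside that range, and the other class I chains lay within it.

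The further probe sets of these genes mostly gave the same direction for the lines. HLA-B, HLA-C, HLA-E, HLA-F and HLA-G have 16 probe sets at the floor on every array, and the ratio of Siglec-14 over Siglec-5 was above 1 on 16 of 16 with NTHi (1.23 to 2.08, median 1.45) and on 15 of 16 without (0.97 to 1.74, median 1.34). The exception was a probe set of HLA-E. Of the 16, 15 are of the type whose probes can match several genes (suffix x_at), so signal of 1 heavy chain can enter the probe set of another and the 16 are not separate measurements. The HLA-E exception is the 1 probe set of another type. Its lines overlapped, with 324 and 249 in Siglec-14/THP-1 with and without NTHi, against 234 and 256 in Siglec-5/THP-1. The plot of the line ratio by probe set shows them with the 2 bright probe sets of B2M.

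**Figure D2:**
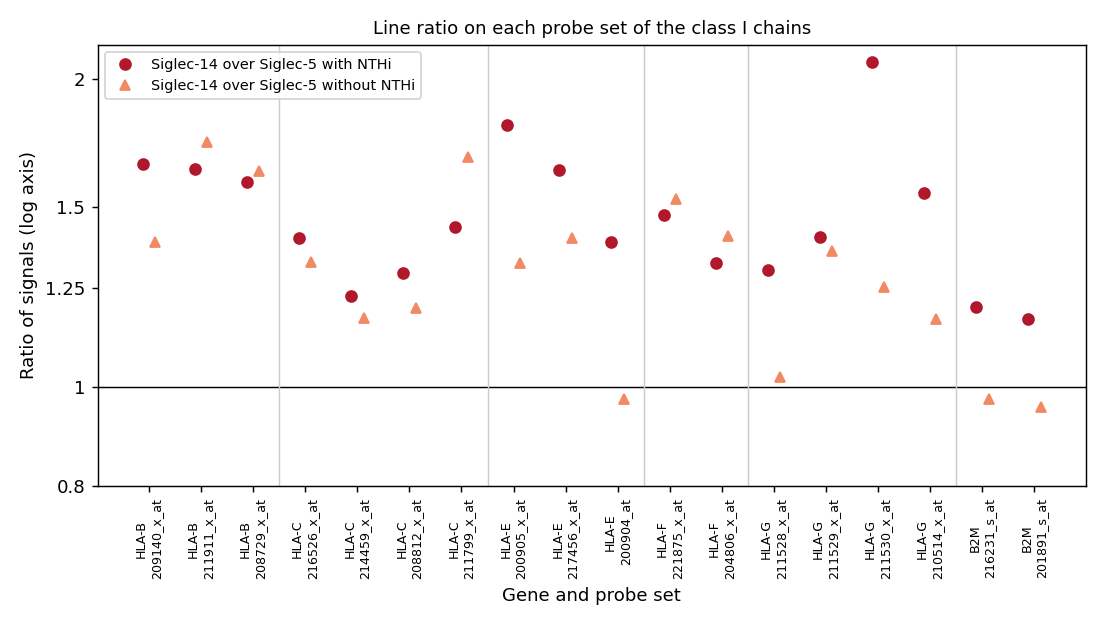
Ratio of signals, Siglec-14/THP-1 over Siglec-5/THP-1 (log axis), on each class I probe set at the floor on every array, with NTHi (circles) and without NTHi (triangles); there is 1 array per condition and so no error bar. All 16 heavy chain probe sets lie above 1 with NTHi, and 15 do so without.

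For NTHi the ratios of the class I chains were at most 1.43. In Siglec-14/THP-1 the ratio of NTHi[+] over NTHi[-] was 1.43 for HLA-E, 1.32 for HLA-B, 1.22 for B2M, 1.15 for HLA-C, 1.09 for HLA-G and 1.03 for HLA-F. In Siglec-5/THP-1 it was 1.05 for HLA-E, 1.11 for HLA-B, 0.99 for B2M, 1.09 for HLA-C, 0.86 for HLA-G and 1.07 for HLA-F. All 6 were above 1 in Siglec-14/THP-1 as deposited, but HLA-F and HLA-G were below 1 with the arrays at the same sum, and HLA-F with quantile normalization. HLA-E in Siglec-14/THP-1 lay above the central 95% of bright genes in that comparison (0.88 to 1.33). Whether the lines responded differently was not tested, since the interaction leaves no degree of freedom with 4 arrays.

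The genes of peptide transport, editing and folding differed by less than 2-fold in all 4 comparisons. TAP1, a subunit of the peptide transporter, had 121 and 106 in Siglec-14/THP-1 with and without NTHi, against 134 and 129 in Siglec-5/THP-1. TAPBP, the tapasin that bridges TAP to class I, had 495 and 392 against 355 and 298. TAP1 was thus lower and TAPBP higher on both Siglec-14 arrays. The other 5 genes are TAP2, the partner subunit of TAP1, TAPBPL, a tapasin-related editor, the chaperones CALR and CANX, and the thiol oxidoreductase PDIA3. Over all 7 genes the log2 ratios ran over -0.20 to 0.33 for NTHi in Siglec-14/THP-1 and -0.44 to 0.25 in Siglec-5/THP-1, and over -0.18 to 0.62 for the lines with NTHi and -0.36 to 0.40 without.

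The peptide cutting genes also stayed within 2-fold. PSMB8 and PSMB9 encode catalytic subunits of the immunoproteasome. PSMB8 had 624 and 611 in Siglec-14/THP-1 with and without NTHi, against 712 and 779 in Siglec-5/THP-1. PSMB9 had 138 and 148 against 153 and 152. As deposited, both genes were lower on each Siglec-14 array than on either Siglec-5 array, the opposite order to HLA-B, but PSMB9 without NTHi turned to higher in Siglec-14/THP-1 with the arrays at the same sum or quantile normalized. The other 5 are PSMB10, the remaining immunoproteasome subunit, PSME1 and PSME3, proteasome activators, and ERAP1 and ERAP2, which trim peptides in the endoplasmic reticulum. The 7 log2 ratios ran over -0.11 to 0.19 for NTHi in Siglec-14/THP-1, -0.54 to 0.01 in Siglec-5/THP-1, -0.19 to 0.79 for the lines with NTHi and -0.37 to 0.28 without. ERAP2, with signals of 28.5 to 50.5, gave the ends at -0.54, 0.79 and 0.28.

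Among the regulators, RFXAP, a subunit of the RFX complex, had lower signals in Siglec-14/THP-1. Its signals were 313 and 272 in Siglec-14/THP-1 with and without NTHi, against 404 and 461 in Siglec-5/THP-1, with ratios of 0.78 and 0.59. The dimmer RFXAP probe set overlapped between the lines, with 76.4 and 54.9 against 71.1 and 87.9. NLRC5 had 65.3 and 53.5 in Siglec-14/THP-1 and 49.0 and 51.1 in Siglec-5/THP-1. CIITA had 21.3 in Siglec-14,NTHi[+] and 7.83 in Siglec-14,NTHi[-], against 6.71 in Siglec-5,NTHi[+] and 13.6 in Siglec-5,NTHi[-], so that it reached the floor on 1 array only. Against the floor, CIITA in Siglec-14,NTHi[+] was at least 1.33-fold higher, whether set against Siglec-14,NTHi[-] or against Siglec-5,NTHi[+]. This bound rests on a single array of 1 probe set. The further CIITA probe sets stayed under the floor on every array, with highest signals of 13.6 and 2.92. RFX5 and RFXANK, the other RFX subunits, had signals between 771 and 1078 with log2 ratios between -0.32 and 0.28. RFX5 was higher with NTHi in both lines, at 1078 against 889 in Siglec-14/THP-1 and 1030 against 874 in Siglec-5/THP-1.

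Several class II genes lay close to the floor, where ratios of single arrays spread most. CD74 had 116 and 101 in Siglec-14/THP-1 with and without NTHi, against 98.7 and 86.4 in Siglec-5/THP-1. HLA-DRA, the nearly invariant alpha chain of HLA-DR, had 34.8 in Siglec-14,NTHi[+] and 16.7 in Siglec-14,NTHi[-], against 36.6 in Siglec-5,NTHi[+] and 32.1 in Siglec-5,NTHi[-]. The lowest HLA-DRA array was Siglec-14,NTHi[-], and the other 3 were close together. Its ratio for NTHi in Siglec-14/THP-1 was 2.08, within the central 95% of genes between the floor and a signal of 100 in that comparison (0.41 to 2.45). HLA-DPA1, the alpha chain of HLA-DP, had 4.87 and 5.24 in Siglec-14/THP-1 with and without NTHi, against 13.9 and 5.47 in Siglec-5/THP-1, all under the floor. HLA-DOA, a chain of the HLA-DO regulator, had 20.5 in Siglec-14,NTHi[+] and 5.15 in Siglec-14,NTHi[-], against 3.59 in Siglec-5,NTHi[+] and 33.5 in Siglec-5,NTHi[-]. Only 2 arrays reached the floor, and in opposite conditions of the lines. HLA-DOB, its partner chain, had 12.8 and 9.62 in Siglec-14/THP-1 and 15.0 and 20.2 in Siglec-5/THP-1, and reached the floor in Siglec-5,NTHi[-] alone.

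Against the floor, HLA-DOA in Siglec-14,NTHi[+] was at least 1.28-fold higher, whether set against Siglec-14,NTHi[-] or against Siglec-5,NTHi[+]. Both Siglec-5,NTHi[+] and Siglec-14,NTHi[-] were at least 2.09-fold lower in HLA-DOA, set against Siglec-5,NTHi[-]. Its other 4 probe sets did not repeat this pattern, none of them exceeding 18.5. HLA-DOB in Siglec-14,NTHi[-] was at least 1.26-fold lower, set against Siglec-5,NTHi[-]. The remaining class II genes are HLA-DPB1, the beta chain of HLA-DP (11.2 to 23.8), the peptide editors HLA-DMA (103 to 113) and HLA-DMB (38.4 to 64.5), and CD1D (29.6 to 52.8), which presents lipids. None of these 4 reached a 2-fold ratio in any of the 4 comparisons.

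Few genes had a ratio of 2 or more as measured, and most of those ratios were set against a signal under the floor, where only the bound given earlier holds. Each count below takes the pairs whose higher signal reached the floor, first with ratios as measured and then with signals under the floor raised to the floor. For NTHi in Siglec-14/THP-1, 3 of 31 genes had a measured ratio of at least 2-fold higher (CIITA, HLA-DRA and HLA-DOA) and 0 lower, against 3.5% and 3.39% of 13210 genes of the whole array. With signals raised to the floor, HLA-DRA alone was 2-fold higher, against 1.17% of genes higher and 0.621% lower. HLA-DRA, the one gene here with both signals of the pair at the floor, missed 2-fold with the arrays at the same sum (log2 ratio 0.92). For NTHi in Siglec-5/THP-1, 0 of 32 were higher and 1 was lower (HLA-DOA), against 3.19% and 4.06% of 13015 genes. HLA-DOA stayed 2-fold lower with signals raised to the floor, against 0.876% of genes higher and 0.884% lower.

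For the lines without NTHi, 0 of 32 were higher in Siglec-14/THP-1 and 2 had measured ratios at least 2-fold lower (HLA-DOA and HLA-DOB), against 6.23% and 3.97%. Only HLA-DOA stayed 2-fold lower with signals raised to the floor, against 3.19% of genes higher and 1.43% lower. With NTHi, 2 of 31 had measured ratios at least 2-fold higher (CIITA and HLA-DOA) and 0 lower, against 7.63% and 3.37%. With signals raised to the floor 0 of 31 were 2-fold different, against 4.36% of genes higher and 0.962% lower. The median log2 ratio of the antigen presentation genes was 0.15, -0.03, -0.02 and 0.14 in these 4 comparisons, against 0.08, -0.11, -0.13 and 0.06 for all genes, and these comparisons share arrays.

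**Figure D3:**
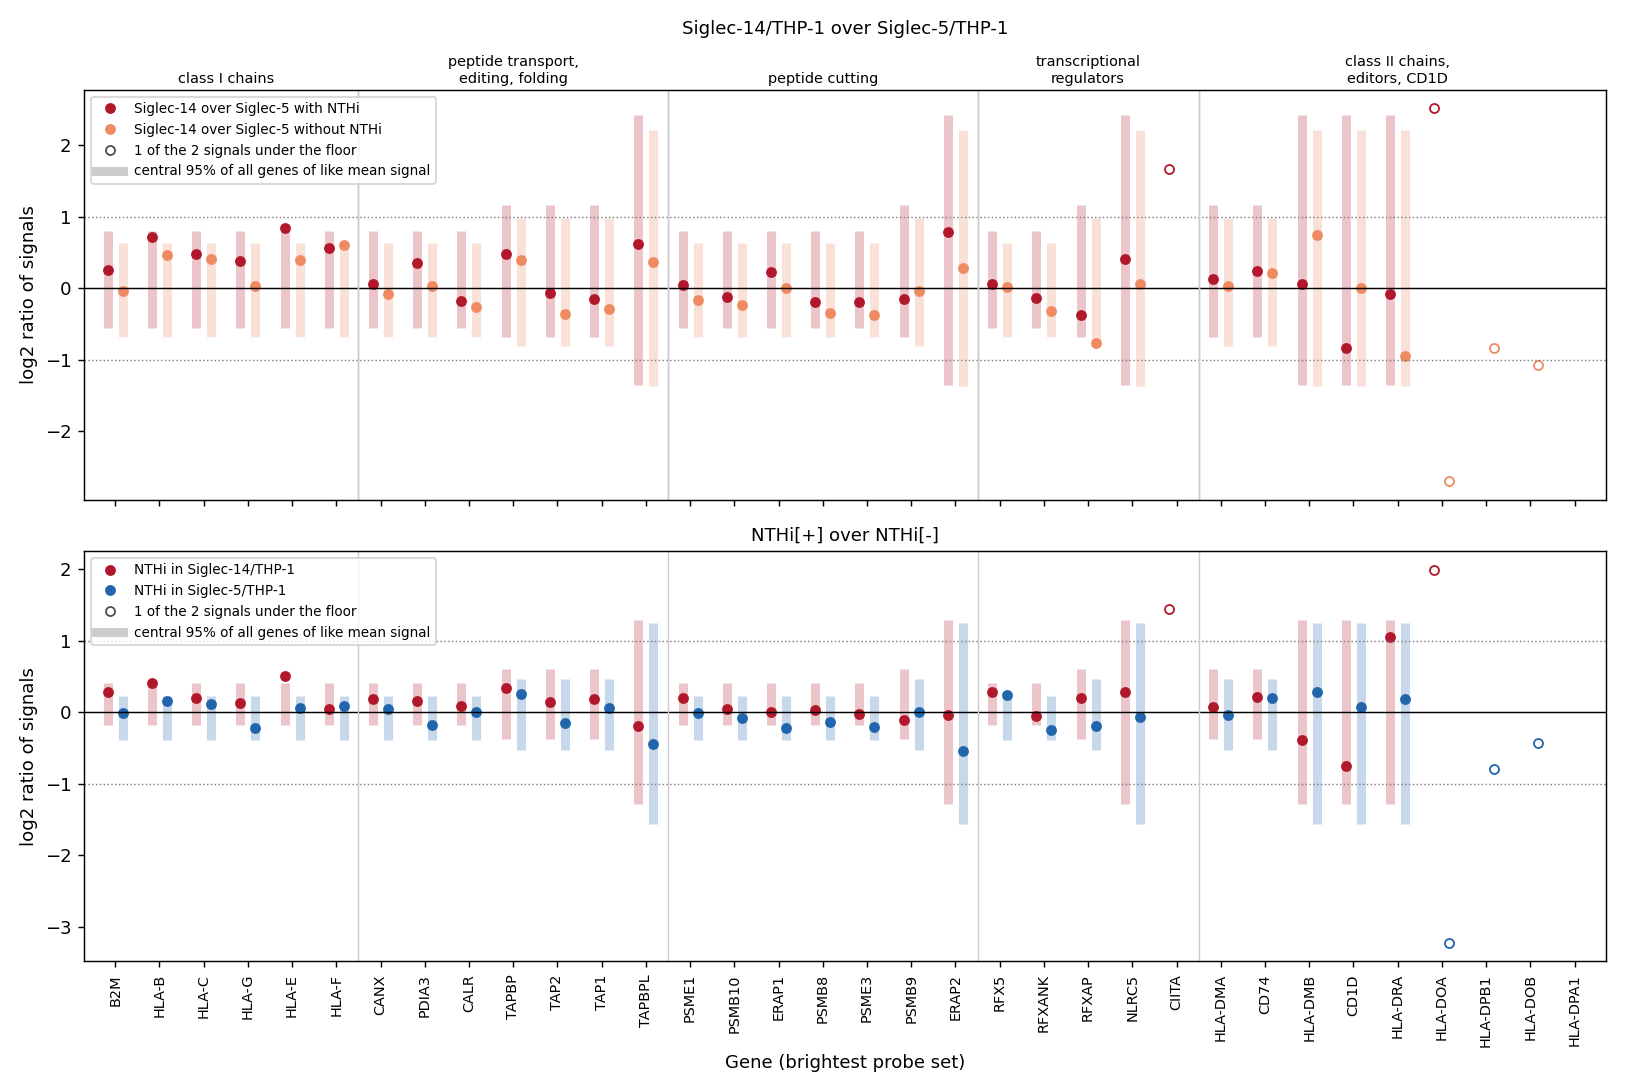
Log2 ratio of signals for each antigen presentation gene, Siglec-14 over Siglec-5 with and without NTHi (upper panel) and NTHi[+] over NTHi[-] in each line (lower panel), with open points where 1 signal of the pair is under the floor and pale bars for the central 95% of all genes of like mean signal. The heavy chains lie above 0 in the upper panel, and every point beyond the dotted 2-fold lines except HLA-DRA is open.

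A fit across all 4 arrays let the lines stand as repeats for NTHi and the NTHi conditions as repeats for the lines (limma on log2 signals, 31989 probe sets, 1 residual degree of freedom, Benjamini-Hochberg adjustment). In this fit HLA-E, HLA-F and HLA-B were higher and RFXAP was lower in Siglec-14/THP-1, and no gene of the set was called for NTHi. The line difference in limma was 0.63 ± 0.15 (log2, SE) for HLA-E with an adjusted p of 0.00111, and 0.58 ± 0.15 for HLA-F with an adjusted p of 0.00289. It was 0.60 ± 0.16 for HLA-B with an adjusted p of 0.00513 and -0.56 ± 0.16 for RFXAP with an adjusted p of 0.00666. The HLA-E, HLA-F and HLA-B calls all rest on x_at probe sets, so these 3 are not separate measurements. All HLA-B probe sets are of that type. The HLA-F probe set of another type lay near the floor (8.75 to 17.9) and was not called (0.53 ± 0.69, adjusted p 0.78 in limma). The HLA-E probe set of another type was not called for the line (0.21 ± 0.16, adjusted p 0.54 in limma). HLA-C (0.44 ± 0.16, adjusted p 0.0634 in limma) and TAPBP (adjusted p 0.0567) missed the threshold. Dimmer x_at probe sets of HLA-C (limma adjusted p 0.00144) and HLA-G (2.0e-04 and 0.0315) were called higher. Dimmer ones of CALR (limma adjusted p 0.0294) and PSME3 (0.00858) were called lower. On the brightest probe sets, 3 of 33 genes were thus higher and 1 was lower, against 4.69% and 3.8% of all probe sets. Genes count here with their brightest probe set, whereas the share over all covers every fitted probe set, dim ones included. With the 75th percentile as floor, limma called 5 of 23 genes higher and 1 lower, against 1014 and 1110 of 14745 probe sets. For the NTHi term 0 of 33 were called on the brightest probe set, also at an unadjusted p under 0.05, against 0.688% higher and 0.231% lower of all probe sets. Some further probe sets of HLA-B, HLA-E, RFX5 and TAPBP (higher) and of HLA-G (lower) had an unadjusted limma p of 0.0047 to 0.030. None of these was called after adjustment. The variance in this fit came wholly from its trend with signal, so an SE is not the spread of the gene itself. With 1 array per condition, the p-values do not cover variation between repeat cultures or separately made lines. Without the trend 0 of the 33 were called for either term, as were 0 of all 31989 probe sets. At an unadjusted p under 0.05, 1 of the 33 then passed for the line and 0 for NTHi.

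The calls moved with the scaling. With the arrays at the same sum, the form of standardization that the methods name, limma called 3 genes higher with NTHi, namely HLA-B (0.24 ± 0.05, adjusted p 1.156e-04), HLA-E (0.26 ± 0.06, adjusted p 0.0057) and RFX5 (0.22 ± 0.07, adjusted p 0.040). For the line it then called 9 of 33 genes higher and 5 lower. The calls over all probe sets rose as well. For NTHi they were 599 higher and 653 lower of 32017, against 220 and 74 of 31989 as deposited. For the line they were 3101 higher and 3072 lower, against 1501 and 1217 as deposited. HLA-B, HLA-E and HLA-F remained higher and RFXAP remained lower in Siglec-14/THP-1 at an adjusted p under 0.05 with the same sum, the same median and quantile normalization. HLA-C and TAPBP joined them, as higher, under these 3 scalings. CALR, PSMB8, PSME3 and RFXANK were called lower with the same sum and the same median, but not with quantile normalization.

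Of 61 tested further genes around the pathway, limma called 8 higher and 0 lower in Siglec-14/THP-1 (13.1% and 0%, against 4.69% and 3.8% of all probe sets), and 1 higher and 0 lower with NTHi (1.64% and 0%, against 0.688% and 0.231%). Here and for the lists below, brightest probe sets of genes are set beside all probe sets, dim ones included, so the shares are not fully alike. Among 17 tested transactivators and interferon signaling genes, limma called 1 higher with NTHi and 3 higher in Siglec-14/THP-1, with 0 lower for either term. The 1 with NTHi was IFNGR2, the accessory chain of the interferon gamma receptor, at 2488 and 1471 in Siglec-14/THP-1 with and without NTHi, against 1430 and 989 in Siglec-5/THP-1 (NTHi term 0.64 on the log2 scale, limma adjusted p 0.0050). The 3 for the line were IFNGR1, IFNGR2 and IRF1. IRF2, an interferon regulatory factor, had 113 and 63.5 against 55.5 and 69.9, and SOCS1, an inhibitor of JAK kinases, had 41.5 and 24.8 against 20.6 and 17.3, both with line ratios just over 2-fold with NTHi. The constitutive proteasome (15 tested) and the folding and loading partners of the endoplasmic reticulum (9 tested) had 0 called for either term, as had the 2 tested further class II chain genes. At an unadjusted p under 0.05 the proteasome had 0 for both terms, the folding partners 0 for NTHi and 1 for the line, and the class II chain genes 1 for each.

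Of 11 tested genes of class II endosomal processing, 4 were called higher in Siglec-14/THP-1 (36.4%, against 4.69% of all probe sets), 0 lower, and 0 with NTHi (2 at an unadjusted p under 0.05). They were the intramembrane protease SPPL2A and the cathepsins CTSB, CTSH, with 446 and 347 in Siglec-14/THP-1 with and without NTHi against 202 and 158 in Siglec-5/THP-1, and CTSL, with 148 and 122 against 65.6 and 78.2. LGMN, an asparaginyl endopeptidase, had 24.6 in Siglec-14,NTHi[+] and 2.75 in Siglec-14,NTHi[-], against 3.04 in Siglec-5,NTHi[+] and 25.6 in Siglec-5,NTHi[-], the same high and low arrays as HLA-DOA. Of 7 tested MHC-like and stress ligands, 1 was called higher in Siglec-14/THP-1, with 0 called for NTHi (also 0 at an unadjusted p under 0.05). The one higher was ULBP2, a ligand of the NK receptor NKG2D, at 114 and 95.1 in Siglec-14/THP-1, against 33.2 and 22.0 in Siglec-5/THP-1.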

How the data were processed

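The authors put 4 RNA samples, 1 per condition, on GeneChip U133 Plus 2.0 arrays of human genes and quantified them with GeneChip Operating Software, of a version not given in the sources. The deposited values are signal intensities per probe set on a linear scale. The methods name a standardization on the cumulative signal of all probes, but the sums of the deposited intensities differ, so whether the values carry it is unknown, and equal sums were tried as an alternative. Deposited detection calls were not used here.

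Of 54675 probe sets, 62 controls were left out, and 41091 had 1 gene, 1801 several and 11721 none in the platform annotation. Ratios were taken on signals as deposited. A pair was counted where its higher signal reached the floor, the median of all signals (16.01). Bounds replace a signal under the floor by the floor. limma 3.58.1 (R 4.3.3; lmFit, eBayes with trend, line and NTHi additive) was fitted to the log2 signals of every probe set with a signal at the floor or above on 1 array or more. Since limma estimated an infinite prior, each variance is the trend's value. The fit was tested on simulated data. Python 3.11.15, numpy 2.4.6, pandas 2.3.3 and matplotlib 3.10.9 served for the rest.

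The genes and lists were chosen with earlier results of these data known, and the printed promoters, roles and brightness classes after the values were seen. Signals on every array were given for genes at least 2-fold different or called in limma, and for HLA-B, HLA-C, HLA-E, B2M, TAP1, PSMB8, PSMB9, CIITA, CD74, HLA-DRA, HLA-DPA1 and NLRC5. HLA-F, HLA-G, TAPBP and RFX5 are given in full beside them. Of the further pathway lists, genes with a signal at the floor and a 2-fold ratio were named; markers were named after their values were seen. Raising signals under the floor to it was also added after the values were seen. Promoters are RefSeq sequences.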

Additional observations from a re-analysis of the deposited data

Results flagged for a closer look

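HLA-DMB and HLA-DOA moved in opposite directions with NTHi in the lines, and with 1 array per condition the difference was not tested. The least size for this listing, 1.2-fold in each line, was set after the values were seen. HLA-DMB had 49.1 in Siglec-14,NTHi[+] and 64.5 in Siglec-14,NTHi[-], against 46.9 in Siglec-5,NTHi[+] and 38.4 in Siglec-5,NTHi[-], and its log2 response in Siglec-14/THP-1 minus that in Siglec-5/THP-1 was -0.68. For HLA-DOA this difference was 1.42 with signals under the floor raised to the floor, and it rests on 1 probe set of 5.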

How the results depend on the processing

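Each condition had 1 array, so no array could be left out. The limma fit takes NTHi within the lines, and with the other factor left out it called 0 genes for NTHi and 5 for the line. Of all 31989 probe sets it then called 0 for NTHi, and 1352 higher and 1194 lower for the line. The ranges of noise come from all genes of like signal, not from repeats. The count of genes with a measured ratio of at least 2-fold was 3 for NTHi in Siglec-14/THP-1 and became 0 with a pseudocount of 16, with the 75th percentile as floor or with the mean of log2 over all probe sets, and 1 at 3-fold. It became 2 with equal sums, where HLA-DRA was lost at a log2 ratio of 0.92. For NTHi in Siglec-5/THP-1 it was 1, a lower one, and became 0 with the 75th percentile or the mean of log2. With no floor it was 3, of which 1 was higher and 2 lower. For the lines without NTHi it was 2 and became 1 with equal sums, the pseudocount or 3-fold, and 0 with the 75th percentile or the mean of log2. With NTHi it was 2, both higher, and became 0 with the pseudocount or the 75th percentile. With the mean of log2 it was 1, a lower one, and 0 were higher. The median log2 ratio for NTHi in Siglec-14/THP-1, 0.15 as deposited, was 0.017 with equal sums and 0.017 with quantile normalization. For the lines without NTHi it was -0.02 and became 0.12 with equal sums, and with NTHi it was 0.14 and became 0.025 with equal medians. With signals under the floor raised to it, chosen after seeing the data, the 4 counts were 1, 1, 1 and 0. In limma the NTHi term called 0 genes as deposited, 3 with equal sums, 2 with equal medians and 3 with quantile normalization. The line term called 4 as deposited, 14 with equal sums, 10 with equal medians, 9 with quantile normalization, 8 when any probe set counted and 0 without the trend. Over all probe sets NTHi gave 220 higher and 74 lower as deposited, and 599 and 653 with equal sums. It gave 489 and 132 with equal medians, and 353 and 176 with quantile normalization. The line gave 1501 and 1217 as deposited, and 3101 and 3072 with equal sums. It gave 1778 and 3987 with equal medians, and 2512 and 2754 with quantile normalization. The other 56 counts and medians of the antigen presentation genes stayed close. For single genes 63 values kept their call, 17 lost it and 0 changed direction. A ratio was left out of this tally where its pair no longer reached the floor of a setting. This removed all the 2-fold ratios under the 75th percentile floor and the mean of log2, so the tally understates the losses. The causes were not tested.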
